A study of Mus musculus with 9 samples.

Results

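The wild-type LSK libraries are the 3 of the 9 samples in the series whose titles give the wild-type genotype with Mx1-Cre. They were chosen by that label alone, with no measured value. Their transcriptome is described here by itself, as the level of each gene, its rank and its share of the reads. The animals were C57BL/6 mice with the genotype Dnmt3a+/+ and the Mx1-Cre transgene (wt_Mx+), aged 6 months, that had received 5 intraperitoneal injections of poly(I:C), which mimics the double-stranded RNA of viruses. The Mx1 promoter answers interferon, so poly(I:C) switches on Cre, and every group of the series was treated in this way. No untreated library is among the samples. Bone marrow was taken from femurs, tibiae and iliac crests, red cells were lysed, lineage-positive cells were depleted on magnets, and the LSK fraction was sorted by flow cytometry. Total RNA was made into stranded libraries after removal of ribosomal RNA. The libraries are named wt_820, wt_823 and wt_825 after the numbers in their titles. Nothing in the labels says whether each came from a single animal or from a pool, so the spreads below are those between these 3 samples.

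LSK cells are bone marrow cells that carry Sca1 and cKit but none of the surface antigens of mature lineages. They hold the long-term haematopoietic stem cells, which are rare and mostly at rest, and a larger number of multipotent progenitors that divide and begin to express genes of the myeloid, megakaryocyte-erythroid or lymphoid lineages. The RNA of a sorted LSK sample is therefore the sum over these cells, and with bulk RNA fewer cells of a type and less RNA per cell cannot be told apart.

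The 3 libraries were alike in depth, with 52233770, 53093414 and 52622541 reads assigned to genes (wt_820, wt_823 and wt_825, the order of all triplets below). At this depth 1 CPM (a count scaled to the library total) corresponds to between 50.1 and 54.3 reads. A count of 0 in a library allows up to 0.0599 CPM (3 counts, for counting error only). CPM values compare 1 gene between libraries. Levels of different genes are compared only in TPM, which divides the count by the length of the gene's exons. A library named as highest or lowest for a gene is so by CPM. A library stands apart in 2 respects that bear on what follows. Library wt_820 held Xist, the RNA that silences 1 X chromosome in female cells, at 2684 CPM against 1.64 and 1.16, and the Y-linked gene Ddx3y at 0.0552 CPM against 183 and 157. A difference between wt_820 and the other libraries therefore cannot be told apart from a difference between the sexes. It also had the largest share of reads that fell in no counted gene, 23.1% of all counted reads against 13.7% and 17.1%.

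The 5 marker genes were all expressed, the sort antigen genes Kit and Ly6a and the subset markers Cd34, Flt3 and Mecom. Kit, the receptor for stem cell factor and the cKit of the gate, stood at 533, 367 and 470 CPM (457 ± 83.9, SD, n = 3). Ly6a, which encodes Sca1, stood at 35.0, 43.9 and 42.7 CPM, and its transcript is short, so on the TPM scale it reached 111 ± 8.06 against 171 ± 42.8 for Kit (SD, n = 3). Kit was highest in wt_820 and lowest in wt_823, and Ly6a was lowest in wt_820. Cd34, a sialomucin of progenitors that long-term mouse stem cells largely lack, was among the most abundant transcripts, with 1096, 1489 and 1253 CPM (rank 31 of all genes by reads taken) and 575 ± 46.6 TPM (SD, n = 3). Flt3, the receptor tyrosine kinase of lymphoid-primed progenitors, was the steadiest of the 5 markers, with 502, 515 and 533 CPM (276 ± 18.9 TPM, SD, n = 3). Mecom, which encodes the stem cell factor EVI1, stood at 144, 112 and 111 CPM, highest in wt_820, and at 32.7 ± 7.06 TPM (SD, n = 3). Kit lay above 93.5% of detected protein-coding genes on the TPM scale, Cd34 above 98.9%, Flt3 above 96.7% and Ly6a above 88.4%, but Mecom above only 55.4%.

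Promoters of the markers found in the RefSeq table (GRCm38.p6) are shown, to set these levels beside the sequence at a listed start. Those of Eef1a1, the most abundant messenger RNA, and Mpo, a granulocyte-monocyte gene described below, are added. Each runs 5′ to 3′ on the gene's strand from 250 bases before to 50 after the first listed start, and CG dinucleotides, the sites that DNA methyltransferases modify, are in capitals. They lie at chr5:75574737-75575036 (Kit, plus strand), chr1:194938571-194938870 (Cd34, plus), chr5:147400440-147400739 (Flt3, minus), chr3:30509710-30510009 (Mecom, minus), chr9:78481675-78481974 (Eef1a1, minus) and chr11:87793534-87793833 (Mpo, plus). No sequence is shown for Ly6a. Kit and Mecom each have 2 listed starts, of which only the first is shown. The Mecom window lies inside the annotated gene (chr3:29951296-30548008), whose level counts reads of all its transcripts.
Kit: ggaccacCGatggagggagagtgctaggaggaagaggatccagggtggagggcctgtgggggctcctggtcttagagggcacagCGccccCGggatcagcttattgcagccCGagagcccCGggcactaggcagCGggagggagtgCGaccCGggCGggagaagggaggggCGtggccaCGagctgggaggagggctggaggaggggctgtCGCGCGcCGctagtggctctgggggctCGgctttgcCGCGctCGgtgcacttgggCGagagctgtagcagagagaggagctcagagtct
Cd34: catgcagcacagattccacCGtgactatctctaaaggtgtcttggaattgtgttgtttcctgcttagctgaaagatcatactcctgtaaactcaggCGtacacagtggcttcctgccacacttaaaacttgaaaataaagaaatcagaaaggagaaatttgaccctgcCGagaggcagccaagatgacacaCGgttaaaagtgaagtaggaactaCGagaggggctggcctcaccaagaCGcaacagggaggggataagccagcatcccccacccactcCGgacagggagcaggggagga
Flt3: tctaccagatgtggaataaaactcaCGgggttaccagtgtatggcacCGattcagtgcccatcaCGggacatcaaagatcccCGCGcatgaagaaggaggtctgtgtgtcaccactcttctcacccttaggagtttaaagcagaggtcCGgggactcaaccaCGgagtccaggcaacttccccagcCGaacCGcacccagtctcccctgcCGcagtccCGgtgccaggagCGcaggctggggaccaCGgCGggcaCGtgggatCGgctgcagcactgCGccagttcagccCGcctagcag
Mecom: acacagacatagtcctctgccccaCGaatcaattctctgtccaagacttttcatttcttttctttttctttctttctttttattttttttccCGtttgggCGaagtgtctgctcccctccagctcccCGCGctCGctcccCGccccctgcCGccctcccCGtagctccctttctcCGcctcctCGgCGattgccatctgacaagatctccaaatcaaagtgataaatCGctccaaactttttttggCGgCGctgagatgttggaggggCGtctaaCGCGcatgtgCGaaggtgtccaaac
Eef1a1: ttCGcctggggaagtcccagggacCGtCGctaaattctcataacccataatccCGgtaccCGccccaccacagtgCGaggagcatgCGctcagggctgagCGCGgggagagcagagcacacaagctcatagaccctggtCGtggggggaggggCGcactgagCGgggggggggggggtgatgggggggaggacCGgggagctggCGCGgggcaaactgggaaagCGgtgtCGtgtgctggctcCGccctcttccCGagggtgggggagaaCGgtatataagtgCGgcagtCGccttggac
Mpo: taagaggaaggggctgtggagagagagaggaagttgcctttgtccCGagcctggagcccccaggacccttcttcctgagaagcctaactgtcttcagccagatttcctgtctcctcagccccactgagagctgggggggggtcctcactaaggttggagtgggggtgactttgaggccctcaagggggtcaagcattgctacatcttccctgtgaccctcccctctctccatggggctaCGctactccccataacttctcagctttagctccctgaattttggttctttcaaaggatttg
The Kit window holds 20 CG dinucleotides in 300 bases, Flt3 18, Mecom 19 and Eef1a1 22. Cd34 holds 7, the median over the 27025 promoters of the table, and Mpo holds 2, with only 14.6% of promoters holding fewer. The letters GGGCGG, searched on both strands, occur in the Kit, Mecom and Eef1a1 windows and in 35.9% of all promoters. The letters TATAAA occur in none of the 6 windows shown and in 14.2% of all. The search was for exact letters, so a near variant such as TATATAA in the Eef1a1 window was not counted. A summary of promoter composition over all expression levels is void, because only 77.7% of the protein-coding genes (16545 of 21294) had a sequence.

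**Figure D1:**
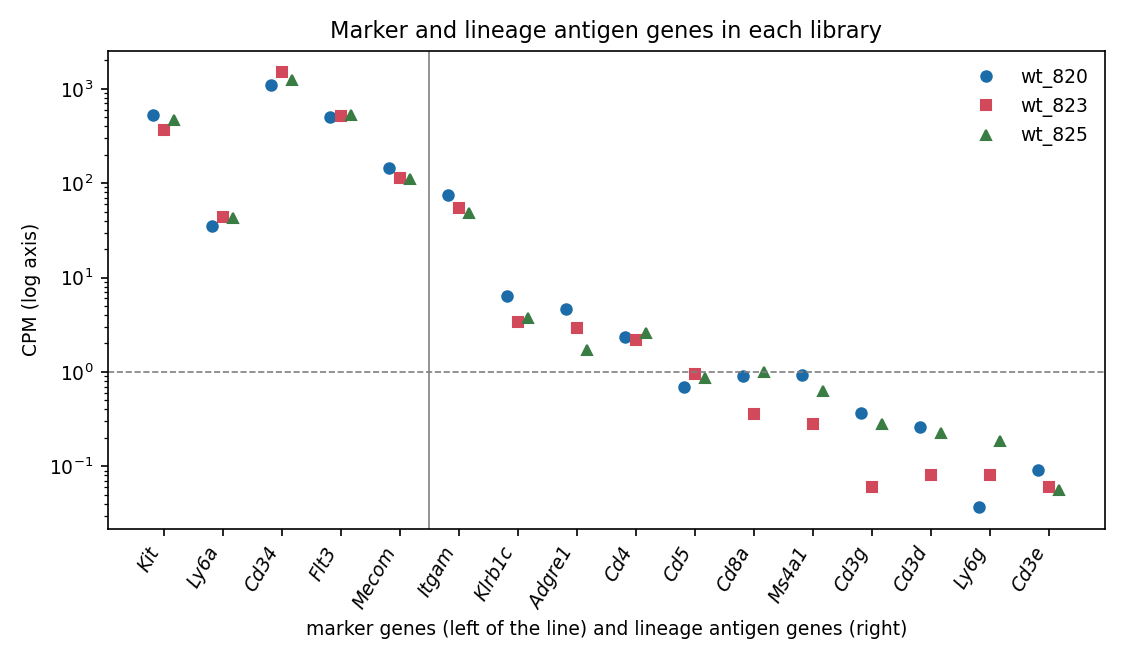
CPM (log axis) of the 5 marker genes and 11 of the 13 lineage antigen genes in libraries wt_820 (circles), wt_823 (squares) and wt_825 (triangles), 1 point per library; the dashed line is 1 CPM. The markers lie between 35.0 and 1489 CPM, whereas 7 of the 13 lineage antigens, all of them plotted, fall below 1 CPM in at least 1 library; the other 2 not shown are at 1 CPM or more in each and are not reported here.

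Transcripts of lineage antigens had a median of 0.699 TPM over all 13 genes, against 28.0 TPM for detected protein-coding genes. Unless stated otherwise, list medians here and below include members that were not detected, which the 28.0 TPM leaves out. Of 13 lineage antigen genes, 6 reached 1 CPM in each library, the level taken as detected here, a share near the 54.8% of all protein-coding genes. The median over these 6 was 4.15 TPM. Itgam, the CD11b integrin of myeloid cells, was the main exception at 74.3, 54.5 and 48.1 CPM. It was highest in wt_820. Cd3e, which marks T cells, stayed between 0.0560 and 0.0920 CPM, and Ly6g, which marks neutrophils, between 0.0368 and 0.187 CPM. Further markers of differentiated cells gave the same picture for some lineages and another for others. Of 17 T and NK cell genes 6 were detected, with a median of 0.558 TPM, and the 3 highest, Nkg7, Lat and Lck, are genes that early progenitors can also express. Of 16 stromal and endothelial genes 6 were detected, led by Pecam1 and Pdgfrb, while the collagen gene Col1a1 and the vessel cadherin gene Cdh5 stayed at or below 0.313 CPM. Of 12 mast cell and basophil genes 7 were detected, led by the carboxypeptidase gene Cpa3 at 37.9, 58.6 and 51.8 CPM. Of 17 monocyte, macrophage and dendritic cell genes 12 were detected, led by the lysozyme gene Lyz2 at 545 ± 58.1 TPM (SD, n = 3), while the macrophage complement gene C1qa stayed at or below 2.30 CPM.

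Transcripts of mature neutrophils and of antibody-secreting cells differed between the libraries. S100a8, which encodes a calcium-binding protein stored in neutrophils, stood at 27.3, 19.6 and 74.5 CPM, and its partner S100a9 at 18.8, 15.8 and 57.3. Library wt_825 was the highest for both and for 7 of the 9 detected genes of the late neutrophil list, against 23.0% of all detected genes. The immunoglobulin J chain gene Jchain stood at 99.5, 31.4 and 41.4 CPM and the kappa light chain gene Igkc at 75.1, 26.7 and 37.9, so wt_820 was the highest for both. It was the highest for no other of the 8 detected genes of the B cell and plasma cell list, of which 6 were highest in wt_825, among them the IgM heavy chain gene Ighm at 173, 152 and 177 CPM. The beta-globin gene Hbb-bs was at 21 CPM in wt_823 and below 1 CPM in the others. The part of such cells in other differences between the libraries was not tested.

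Of 39179 gene rows, 12906 were detected, among them 11671 of 21303 protein-coding genes (54.8%). A further 4529 protein-coding genes (21.3%) had no read in any of the 3 libraries. The detected protein-coding genes had a median of 28.0 TPM, and this median is the yardstick for the lists below. No small set of genes dominated the reads. The most abundant 1184, 1115 and 1174 genes held 50% of gene reads, and the top 10 held 6.29%, 5.41% and 6.12%. Protein-coding genes took 95.5% ± 0.757 of gene reads (SD, n = 3), long non-coding RNA genes 1.33% ± 0.334 and small RNA genes 1.27% ± 0.128.

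**Figure D2:**
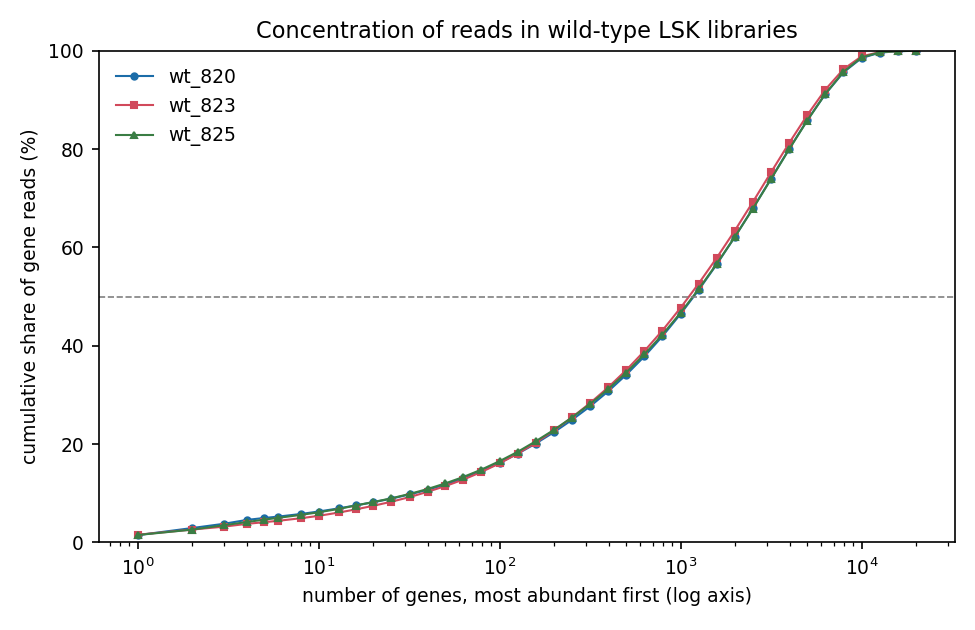
Cumulative share of gene reads (percent) against the number of genes, most abundant first (log axis), with 1 line per library; the dashed line is 50%. The 3 lines nearly coincide and cross 50% between 1115 and 1184 genes.

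The genes that took most reads, without regard to length, were of several kinds. Eef1a1, which carries aminoacyl-tRNA to the ribosome, led with 13888, 16576 and 14769 CPM, 1.5% of all gene reads. The mitochondrial 16S ribosomal RNA mt-Rnr2 followed at 14235, 6291 and 10818 CPM, more than 2-fold apart between wt_820 and wt_823, and the 7SK RNA Rn7sk, which holds back transcription elongation, at 8322, 11145 and 8771. Next came mt-Co1, a subunit of cytochrome c oxidase, at 6570 ± 801 CPM (SD, n = 3), Actb, cytoplasmic beta-actin, at 3296 ± 543, and Lars2, a mitochondrial leucyl-tRNA synthetase, at 1934, 2254 and 4888. Lars2 was high in wt_825 alone, as was the non-coding gene Gm42418, at 1166, 1451 and 2570 CPM. Gm42418 (chromosome 17) overlaps Rn18s-rs5, a ribosomal RNA-related locus that RefSeq classes as a pseudogene, by 1245 bases. Whether ribosomal RNA entered either count was not tested.

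Among the 20 protein-coding genes highest in TPM, after Eef1a1 at 19877 ± 341 and mt-Co1 at 14111 ± 2684 (SD, n = 3), B2m, the invariant chain of MHC class I, stood at 5441 ± 210 TPM. Ribosomal protein genes made up 10 of these 20, from Rps3a1 at 5001 ± 37.3 TPM to Rpl7 at 2324 ± 88.8. The list also held the chaperone gene Hsp90ab1 at 2977 ± 168 TPM, the elongation factor gene Eef2 at 2840 ± 359, the linker histone gene Hist1h1a at 2676 ± 570 and the prothymosin gene Ptma at 2297 ± 398. As a class, 82 of 85 ribosomal protein genes were detected, with a median of 859 TPM, and together they took 5.17%, 5.64% and 5.90% of gene reads. Library wt_820 was the highest for none of the 82, against 33.5% of all detected genes. Many of these genes have near-identical copies in the genome, and reads that fit several places were not counted, so their levels may be understated.

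A group of 7 transcription factors that bind blood stem cell enhancers together, known as the heptad, was expressed throughout. Lmo2, a bridging protein without DNA contact of its own, stood far above the rest at 1067 ± 49.9 TPM (SD, n = 3). The ETS factors Fli1 and Erg followed at 280 ± 16.0 and 226 ± 6.85 TPM, above every value of the helix-loop-helix genes Tal1 (154 ± 19.3) and Lyl1 (154 ± 29.9). Runx1 and Gata2 were lowest at 31.0 ± 8.42 and 30.2 ± 7.91 TPM. Tal1 and Lyl1 overlapped, as did Runx1 and Gata2, and every other neighbouring pair was apart in all 3 libraries. Each of the 30 other blood transcription factors listed was detected, among them Cbfb, the partner of the RUNX proteins, at 333 ± 23.6 TPM, Myb at 279 ± 13.4 and Etv6 at 250 ± 31.8. Klf4 was the lowest of them at 1.42 ± 0.312 TPM.

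Genes associated with long-term stem cells were present at moderate levels. Of 22 on the list 21 were detected. The median was 25.2 TPM over all 22 and 29.5 TPM over the 21 detected. Both were near the 28.0 TPM of all detected protein-coding genes. The adhesion receptor gene Adgrg1 stood out at 876, 771 and 882 CPM (515 ± 71.8 TPM, SD, n = 3). Hlf, a PAR-type leucine zipper factor of stem cells, stood at 259, 146 and 190 CPM, and Procr, the endothelial protein C receptor, at 34.6, 39.0 and 49.1 CPM. Vwf, von Willebrand factor, stood at 102.9, 47.9 and 60.3 CPM. Hlf and Vwf were lowest in wt_823, whereas Procr was lowest in wt_820. Hoxb5 was at 1.90, 1.12 and 1.36 CPM, and Tcf15 was not detected, with values between 0.634 and 1.08 CPM. Of the surface genes that divide the LSK pool, Cd48, carried by progenitors, stood at 120, 258 and 150 CPM (479 ± 161 TPM, SD, n = 3), and Slamf1, the CD150 of stem cells, at 20.7, 16.3 and 13.2 CPM (9.02 ± 2.47 TPM). Library wt_823 had the most Cd48, and its Slamf1 lay between those of the others.

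Genes of each major blood lineage were found at low to high levels. Granulocyte-monocyte genes had the highest median of these lists, 104 TPM, with 14 of 16 detected. A median depends on which genes were listed, so the order of the lists is not an order of the lineages. The calreticulin gene Calr led at 1402 ± 254 TPM (SD, n = 3) and gave 1238 of the 3121 CPM summed over the list. Nkg7, at 345 TPM, is also on the T and NK cell list. Mpo, the myeloperoxidase of neutrophil granules, stood at 931, 620 and 916 CPM (801 ± 218 TPM, SD, n = 3), and the granule protease gene Ctsg at 271, 335 and 297 (958 ± 32.7 TPM). Elane, neutrophil elastase, stood at 53.3, 12.9 and 59.7 CPM, more than 4-fold lower in wt_823 than in each of the others. Ly6c2, a surface antigen of monocytes, was likewise lowest in wt_823 at 70.1, 18.4 and 67.6 CPM, while Prtn3, proteinase 3, was not, at 105, 109 and 139. The later transcription factor gene Cebpe reached only 1.90, 0.878 and 3.73 CPM.

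Among lymphoid-primed genes, 17 of 18 were detected, with a median of 13.0 TPM. Dntt, the terminal transferase of early lymphoid cells, led at 397, 529 and 461 CPM (661 ± 47.0 TPM, SD, n = 3), followed by Flt3 and by Cd27 at 213 ± 12.1 TPM. The recombinase genes Rag1 and Rag2 were at 6.29, 5.63 and 9.38 CPM and at 5.71, 4.77 and 5.88 CPM. Of the B cell factor genes, Ebf1 was at 1.31, 1.90 and 2.20 CPM and Pax5 was not detected, at 0.479, 0.20 and 0.672. Dntt and Flt3 thus lay well above the median of 28.0 TPM, and the factors that fix the B lineage were near the limit of detection.

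Erythroid genes were split. Carbonic anhydrase gene Car2 was high and even, at 635, 555 and 628 CPM, whereas Car1 stood at 151, 54.7 and 64.1. The master factor genes Gata1 and Klf1 were at 29.4, 22.3 and 18.6 CPM and at 9.86, 4.45 and 3.77 CPM, and the erythropoietin receptor gene Epor at 5.85, 3.15 and 4.59. The band 3 gene Slc4a1 stood at 0.534, 3.35 and 0.429 CPM, and the haem synthesis gene Alas2 at 3.33, 4.97 and 3.71. Both were highest in wt_823, as were the 4 haemoglobin genes of the list. Library wt_820 was the highest for 10 of the 15 erythroid genes detected (of 19 found, median 12.5 TPM), against 33.5% of all detected genes, and most clearly for the membrane genes Ermap at 39.7, 5.81 and 8.49 CPM and Rhag at 12.5, 2.51 and 2.24. Of 18 megakaryocyte genes 14 were detected, with a median of 16.7 TPM, led by the factor gene Nfe2 at 189 ± 29.1 TPM (SD, n = 3), the thrombin receptor gene F2r at 123 ± 21.1, platelet factor 4 (Pf4) at 116 ± 21.9 and the integrin gene Itga2b at 108 ± 7.82. Selp, P-selectin, stood at 53.4, 29.2 and 16.3 CPM, and Gp6, the platelet collagen receptor, had no read.

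**Figure D3:**
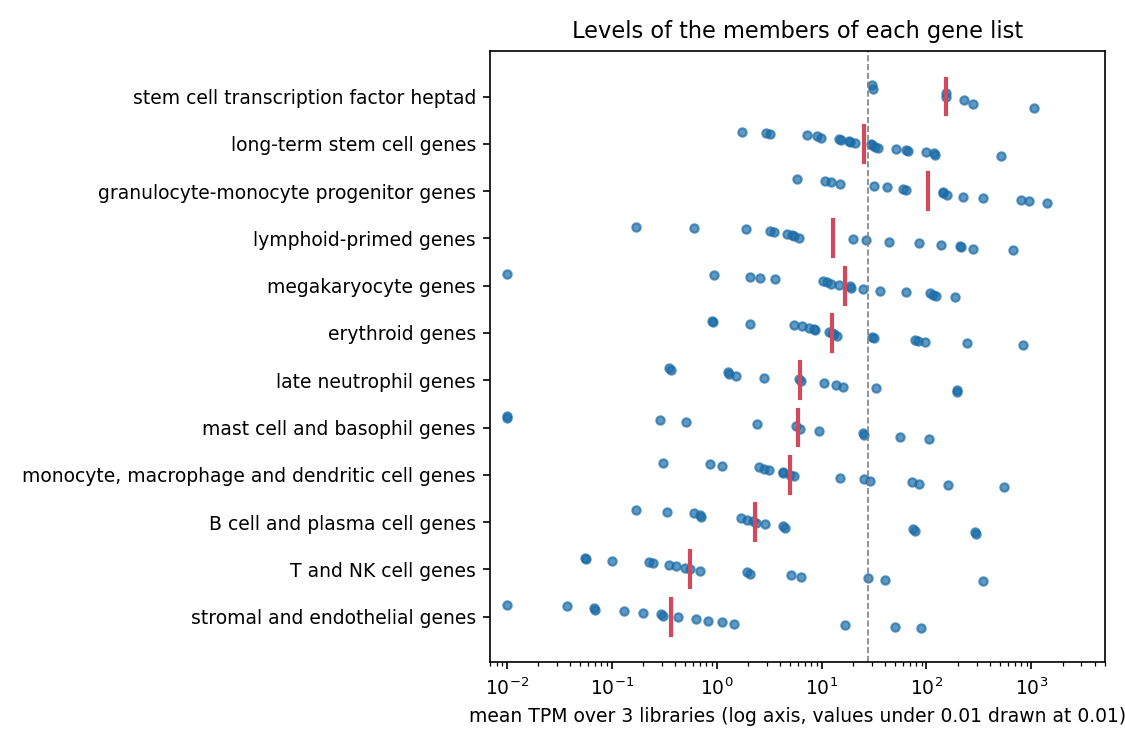
Mean TPM over the 3 libraries (log axis) of each member of 12 gene lists, 1 point per gene. Red bars are list medians over all members, detected or not, and the dashed line is the median of detected protein-coding genes, 28.0 TPM. The medians run from 154 TPM for the 7 stem cell factors to 0.370 TPM for stromal and endothelial genes.

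Receptors for growth factors were broadly expressed, with 28 of 30 detected and a median of 35.6 TPM. After Flt3 and, by its mean, Kit came the interferon-gamma receptor gene Ifngr1 at 167 ± 12.6 TPM (SD, n = 3), the G-CSF receptor gene Csf3r at 156 ± 7.90 and the type I interferon receptor gene Ifnar2 at 120 ± 3.97. Il3ra, the alpha chain of the IL-3 receptor, stood at 4.25 ± 0.694 TPM, and Il7r, the receptor of committed lymphoid progenitors, at 5.45 ± 0.880. Of the kinases that serve these receptors, Jak1 was highest at 215 ± 22.5 TPM, ahead of Jak2 at 133 ± 18.3, Jak3 at 63.9 ± 5.33 and Tyk2 at 31.5 ± 1.89, an order found in each library. All 7 STAT genes were detected, with Stat2 lowest at 24.6 ± 5.26 TPM, and the order of the other 6 changed with the length used. Receptors for the niche included Cxcr4, which binds CXCL12, at 142, 149 and 143 CPM (264 ± 12.9 TPM). Of 24 homing and adhesion genes 23 were detected. Notch2 stood at 108 ± 18.4 TPM, ahead of Notch1 at 20 ± 3.96, and Notch3 and Notch4 were near 1 TPM.

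Genes that drive division were abundant in all 3 libraries. All 20 S phase genes and all 20 G2 and mitosis genes were detected, with medians of 82.9 and 91.8 TPM. Mcm6, a subunit of the replicative helicase, stood at 721, 1274 and 941 CPM, Top2a, which untangles replicated DNA, at 1107, 1912 and 1301, and Mki67, the Ki-67 antigen, at 925, 1030 and 848. Library wt_823 was the highest for each of these 3 genes. Cdk4 was the leading G1 kinase at 434 ± 64.3 TPM (SD, n = 3) against 90.5 ± 5.86 for Cdk6, and Ccnd2 the leading D-type cyclin at 79.0 ± 13.4. Among the inhibitors of these kinases, Cdkn1b (p27) at 67.9 ± 8.62 TPM overlapped Cdkn2c (p18) at 57.7 ± 7.51. Cdkn1c (p57), linked to stem cell rest, was at 7.25 ± 0.981 TPM and Cdkn1a (p21) at 2.39 ± 0.411. Cdkn2a, which encodes p16 and p19ARF, had no read in any library.

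**Figure D4:**
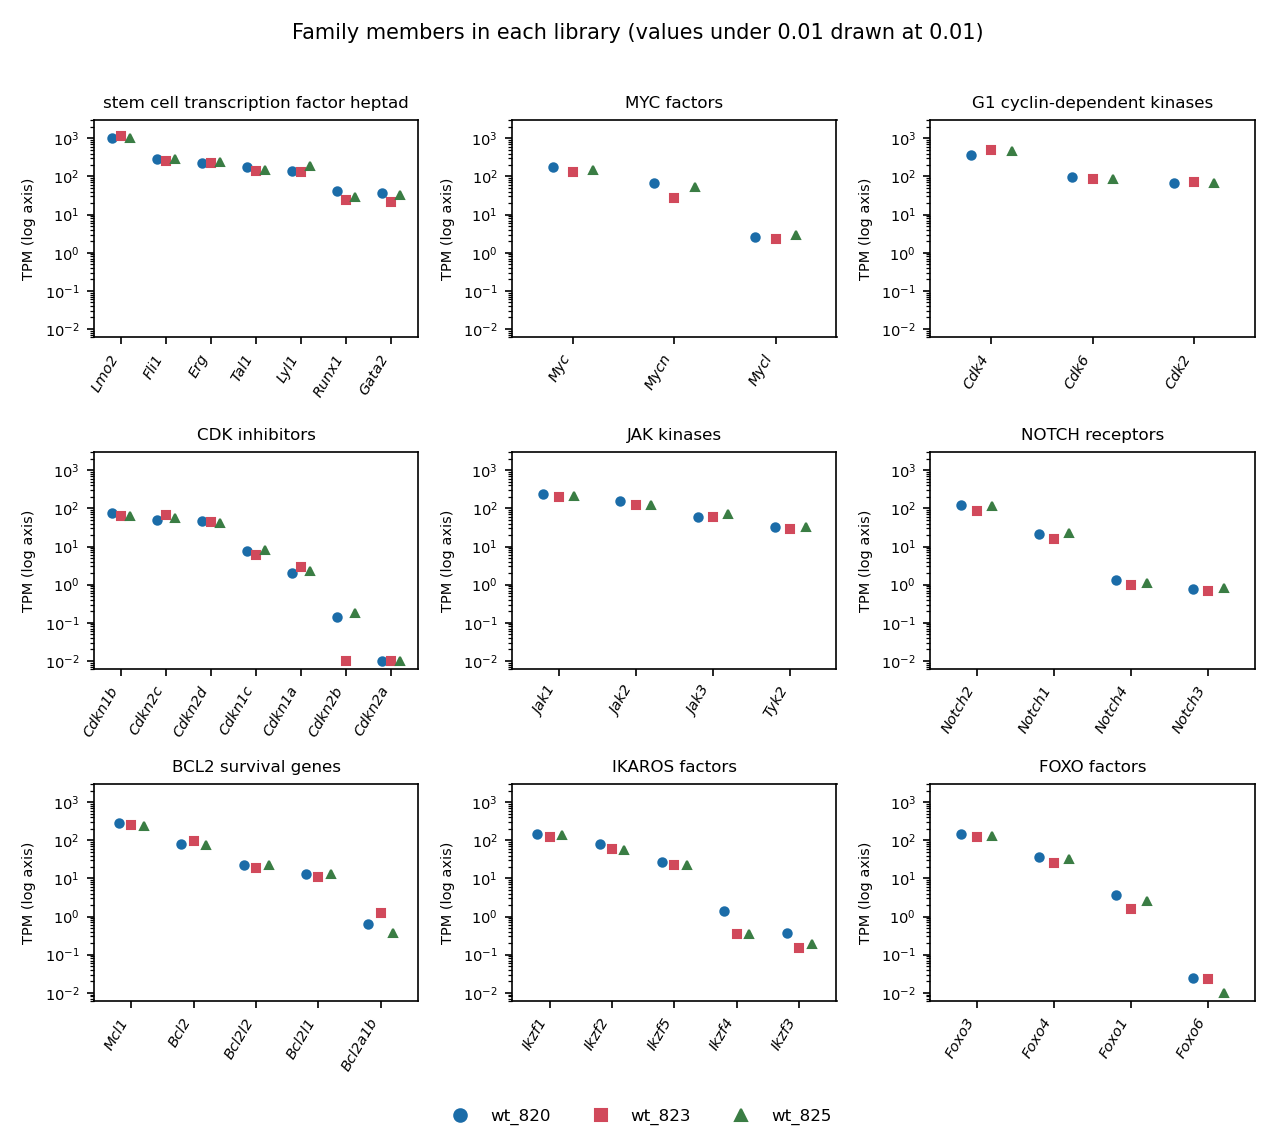
TPM (log axis) of the members of 9 gene families in each library, with values under 0.01 drawn at 0.01 and members ordered by their mean. Lmo2, Myc, Cdk4, Jak1, Notch2, Mcl1, Ikzf1 and Foxo3 lie above every other member of their family in each library, while Cdkn1b and Cdkn2c overlap.

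Several other families were led by 1 member. Myc stood at 155 ± 23.7 TPM (SD, n = 3) and Mycn at 50.2 ± 21.9, with Mycn the more variable at 65.1, 28.6 and 53.8 CPM. Ikzf1, Ikaros, stood at 137 ± 13.5 TPM against 65.7 ± 13.2 for Ikzf2, while Ikzf3, the member of mature lymphocytes, was not detected. Foxo3, a factor of stem cell upkeep under stress, stood at 132 ± 12.6 TPM and Foxo1 at 2.63 ± 1.06. Of the survival genes, Mcl1 stood at 263 ± 24.0 TPM, Bcl2 at 83.2 ± 9.62 and Bcl2l1 at 12.6 ± 1.28. The maintenance methyltransferase gene Dnmt1 stood at 559, 999 and 797 CPM, highest in wt_823, and Dnmt3b exceeded Dnmt3a in TPM in each library, 79.5 ± 5.92 against 31.4 ± 4.65. In the RUNX, GATA, STAT, TET and CBX families the leading member depended on whether the exon union or the longest transcript was taken as the length, so no order is given.

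Only the A cluster and a few B cluster genes of the Hox family were expressed. Hoxa9, a factor of self-renewal, led at 66.8, 76.7 and 71.2 CPM (42.2 ± 0.328 TPM, SD, n = 3), above Hoxa7 at 23.7 ± 1.26 TPM in each library, and 7 of 11 Hoxa genes were detected. Its cofactor gene Meis1 stood at 402, 364 and 369 CPM. Of 10 Hoxb genes 3 were detected, with Hoxb4 at 19.8, 11.5 and 11.4 CPM and Hoxb3 at 3.20, 1.42 and 1.49, both highest in wt_820. None of 17 Hoxc and Hoxd genes was detected, and the highest of them, Hoxc6, reached 0.313 CPM.

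Interferon-stimulated genes are of note in animals given poly(I:C), although the labels give no time between the injections and the harvest. Of 34 genes 33 were detected, with a median of 22.9 TPM. The guanylate-binding protein gene Gbp2 was even, at 90.4, 88.3 and 89.7 CPM. On the TPM scale Gbp2 had the highest mean, at 117 ± 9.84 (SD, n = 3), and the classical targets Mx1 at 6.01 ± 2.35, Isg15 at 9.69 ± 1.56 and Ifit3 at 4.35 ± 2.09 were far lower. Library wt_820 was the highest for 21 of the 33, against 33.5% of all detected genes. The sum over the list was nearly even, at 1408, 1351 and 1313 CPM. With no uninjected library among the samples, these levels cannot be set against a resting state.

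Chromatin genes that recur as mutations in leukaemia were all expressed (23 of 23 detected, median 83.7 TPM), from Npm1 at 1891 ± 302 TPM to Tet2 at 16.4 ± 4.04 (SD, n = 3). With the longest transcript as the length, Tet2 stood at 23.3 TPM. The H3K27 methyltransferase gene Ezh2 exceeded its relative Ezh1 in each library, with 74.4 ± 3.59 against 31.1 ± 6.76 TPM (SD, n = 3). Metabolic genes were high. Of 20 glycolysis genes all were detected, led by lactate dehydrogenase A (Ldha) at 431, 791 and 604 CPM, as were 76 of 82 nuclear genes of the respiratory chain, with a median of 135 TPM. Of 22 antioxidant genes all were detected, led by glutathione peroxidase 1 (Gpx1) at 921 ± 98.0 TPM. Txnip, which binds thioredoxin and slows glucose uptake, stood at 753, 589 and 793 CPM and was lowest in wt_823.

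Because the libraries were made from total RNA, transcripts without a poly(A) tail are represented. Of 59 replication-dependent histone genes 46 were detected (78.0%, against 54.8% of all protein-coding genes). None of the 46 was highest in wt_820, against 33.5% of all detected genes. The telomerase RNA Terc was detected at 24.9 ± 1.31 TPM (SD, n = 3). Apart from such transcripts, Gas5, a host of small nucleolar RNAs, stood at 406 ± 22.2 TPM. Of 34 major histocompatibility complex genes 18 were detected, led by the class I genes H2-K1 at 1239 ± 111 TPM and H2-D1 at 996 ± 78.0. Relatives of these genes are close in sequence, and reads shared between them were not counted.

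Whole gene classes were silent. Of 1007 olfactory receptor genes 3 were detected and 883 had no read, of 286 vomeronasal receptor genes 1 was detected, and of 64 defensin genes none. The 3 olfactory receptor genes, named here after their values were seen, were Olfr56, Olfr658 and Olfr417, all at or below 5.25 CPM. Of 107 keratin and keratin-associated genes 3 were detected, and Krt18 alone was well expressed, at 60.3, 54.1 and 59.0 CPM. Imprinted genes were not silent as a class. Of 19 found 11 were detected (57.9%), near the 54.8% of all protein-coding genes. Igf2 stood at 0.239, 0.220 and 0.149 CPM, H19 at 0.405, 0.0998 and 0.485, and Dlk1 at or below 0.319, while Gnas and Grb10 were detected at 91.2, 111 and 110 CPM and at 74.0, 59.1 and 62.1.

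Most genes agreed closely between the libraries. Over the 9597 detected genes with a mean of at least 10 CPM, the median ratio of the highest to the lowest library was 1.23, 86.5% lay under 1.5, and 160 genes (1.67%) reached 2 or more. Of these 160, 86 were highest in wt_820, against 33.5% of all detected genes. In wt_823, 84 of the 160 were lowest, and the share of all detected genes lowest there was not counted. The common biological coefficient of variation, the spread between libraries beyond counting noise as edgeR estimates it, was 0.198. It was 0.147 without wt_820, 0.186 without wt_823 and 0.241 without wt_825. By log2(CPM + 1) over detected genes, wt_823 and wt_825 were most alike (Pearson r across genes 0.993), and wt_820 and wt_823 least (0.981). Genes are not independent replicates, and these values describe the 3 libraries.

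The differences ran along gene groups. Library wt_823 was the highest for 18 of 20 S phase genes, 20 of 20 G2 and mitosis genes, 45 of 49 proteasome genes, 65 of 76 respiratory chain genes and 42 of 55 splicing factor genes, against 43.5% of all detected genes. The summed S phase genes stood at 3509, 6187 and 4859 CPM. Library wt_820 was the highest for 15 of 21 long-term stem cell genes, against 33.5% of all detected genes, and for 10 of 11 detected mitochondrially encoded genes, which took 2.78%, 1.43% and 2.10% of gene reads. It was also the highest for the nuclear RNAs Malat1, at 3911, 1765 and 2466 CPM, and Neat1, at 142, 76.1 and 103.4, but for only 5 of the 13 detected long non-coding RNAs listed, the other 8 being highest in wt_823. The share of reads that fell in no counted gene followed the same order of the libraries, and its part in these values was not tested.

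**Figure D5:**
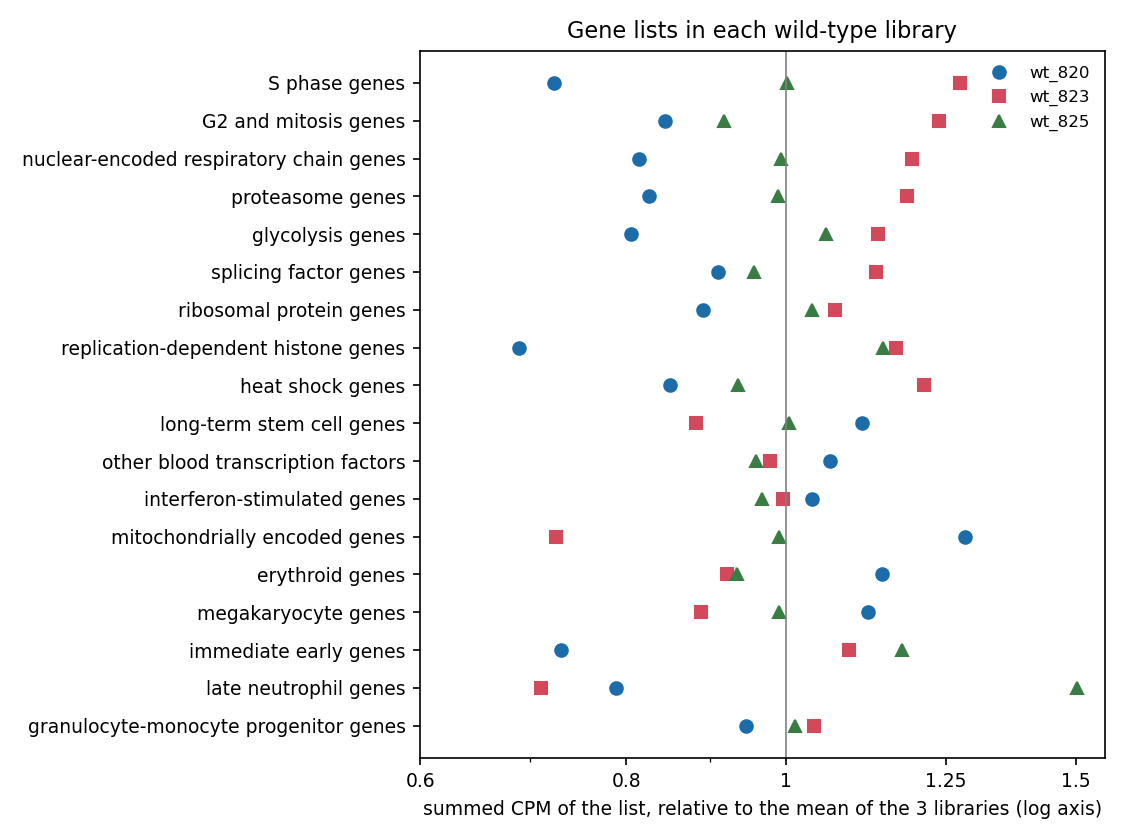
Summed CPM of 18 gene lists in each library, divided by the mean of the 3 libraries (log axis); circles are wt_820, squares wt_823 and triangles wt_825. The wt_823 squares are rightmost for division, proteasome and respiratory chain genes and leftmost for long-term stem cell and mitochondrially encoded genes, and the wt_825 triangle is rightmost for late neutrophil genes.

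The genes that varied most outside the sex-linked set were few and mostly set apart by wt_820. The immediate early genes Fos (1.53, 17.6 and 16.3 CPM) and Jun (4.07, 26.5 and 30.8), which are induced within minutes of a stimulus, were lowest in wt_820. The erythroid membrane genes Ermap, given above, and Ank1, ankyrin 1, were highest in wt_820, Ank1 at 22.9, 3.47 and 4.18 CPM. The myosin light chain gene Myl10 stood at 53.9, 11.7 and 10.7 CPM, and the peptide transporter gene Slc15a2 at 52.0, 12.9 and 12.6, both high in wt_820 alone, as was the carboxylesterase gene Ces2g at 28.7, 8.94 and 8.82. A smaller set was low in wt_823 alone, namely Elane, Ly6c2 and the complement gene C3 at 29.7, 6.57 and 25.7 CPM. Cish, a target of STAT5 that dampens cytokine signals, stood at 18.8, 4.21 and 7.84 CPM, and the small Cajal body RNA Scarna6 at 14.9, 38.6 and 9.09.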

How the data were processed

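RNA of sorted LSK cells was sequenced in 9 samples, and the 3 wild-type ones are used here, grouped by their titles. The authors deposited raw counts per Ensembl gene, and their second, scaled table was not used. STAR, HTSeq 0.5.3p3 and DESeq2 with mm10 (GRCm38) are named in the submitters' processing notes. Not given in the sources used here are the other versions, the annotation and the strand setting of the counting step. Levels of genes that overlap on opposite strands are therefore uncertain. Rows that name no gene held 45.5%, 40.5% and 42.7% of counted reads in wt_820, wt_823 and wt_825 and were left out of library sizes. Reads that did not align uniquely (21.6% to 25.9%) are among them.

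Symbols, classes and exon lengths came from GENCODE M21 (GRCm38), which matched 37693 of 39179 identifiers, and promoters from RefSeq. CPM used library sizes scaled by TMM in edgeR 4.0.16 (R 4.3.3), and TPM the union of a gene's exons. TPM was not scaled by TMM, so its SD between libraries can differ from that of CPM. The order of the libraries can differ too. Flt3 was lowest in wt_820 by CPM but in wt_823 by TPM (286, 254 and 288). DESeq2 1.42.0 size factors, other limits on low values, other lengths, removal of gene classes and each library left out in turn were the alternatives. No groups were compared and no test was run. The coefficient of variation estimate was checked on simulated data.

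The members and gene lists were chosen with earlier results of these data known. Named genes are the markers, the 20 highest in CPM and in protein-coding TPM, the highest and the undetected members of each list, the members of each family, the 4 highest of each class, and the 15 most variable genes with a mean of at least 10 CPM that are neither sex-linked nor clone names. A few further list members are named with their values. Not every gene that the rules name is printed, and a few are not reported here.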

Additional observations from a re-analysis of the deposited data

How the results depend on the processing

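No paired analysis was possible because no groups were compared and the numbers of the wild-type libraries occur in no other group. Of 86 values recomputed under alternatives, 68 stayed within the spread between libraries (for counts and the coefficient of variation, within 1.5 times) and 18 moved. The number of detected genes was 20356 with any count in each library in place of 1 CPM. On the length-scaled scale, 509 genes held 50% of the total, the top 10 genes held 18.2% and ribosomal protein genes 10.2%. Without mitochondrially encoded, histone and small RNA genes the top 10 held 4.12%, and over all rows, with those that name no gene, ribosomal protein genes held 3.19%. Removing those 3 classes raises every TPM by the same factor within a library, and the list medians became 31.8 TPM for long-term stem cell genes, 16.5 for lymphoid-primed genes, 194 for the 7 stem cell factors, 105 for S phase genes, 116 for G2 and mitosis genes, 45.1 for receptors, 1086 for ribosomal protein genes and 29.0 for interferon-stimulated genes. With the longest transcript as the length, the medians that moved were those of the 7 stem cell factors (123 TPM), S phase genes (111), receptors (30.1) and ribosomal protein genes (1157). That length changed the order within 10 of 23 families and the leading member of 5. Leaving out each library in turn moved none of these values beyond the limits given. For the shares of reads this was fixed in advance. The mean of the remaining libraries always lies within the SD of all 3. For list medians the limit was also the SD between libraries, and it was wide. The erythroid median of 12.5 TPM became 8.54 without wt_820 and 14.9 without wt_825 and still counted as the same. Depth limits levels under 1 CPM, where a library holds about 50 reads or fewer. What sets wt_820 apart, Xist included, rests on 1 sample.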
